A study of Mus musculus with 6 samples.

Results

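Neurons carry a set of miRNAs that other cells make in smaller amounts, and 10 of them were followed here in the small extracellular vesicles (sEV) that cochlear explants release: mmu-miR-124-3p, mmu-miR-128-3p, mmu-miR-129-5p, mmu-miR-129-2-3p, mmu-miR-153-3p, mmu-miR-218-5p, mmu-miR-137-3p, mmu-miR-138-5p, mmu-miR-132-3p and mmu-miR-212-3p. They were taken by name from a table of 810 miRNAs, and each of the 10 had a row in it. The explants came from ICR mice at postnatal day 3 and were kept for 48 h either with 50 µM cisplatin, a platinum drug that damages hair cells (vesicles called Cis-sEV), or with the same volume of PBS (Ctrl-sEV). Each group held 3 libraries, and each library pooled the vesicles of about 80 explants. The dissection described in the methods left the sensory epithelium on its basilar membrane and took the spiral ganglion away, and no library of purified neurons was there to set the members against, which carry their neuronal name from other tissues. The study describes the 3 libraries of a group as biological replicates. The p-values rest on the spread between these libraries, pooled over both groups.

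miRNAs are short RNAs that guide Argonaute proteins to messages matching their seed, the bases near the 5′ end, and lower the output of those messages. In the inner ear, the neurons of the spiral ganglion connect the hair cells with the brainstem and depend on contact with them. Vesicles carry miRNAs out of the cell, and the amount found in the medium depends on how many cells of a type release them, how many are lost, and how much each releases. Fewer cells of a type and less RNA per cell cannot be told apart in pooled vesicles.

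The sequences below, written as the deposited table gives them, are those on which the comparisons turn, with the seed (bases 2 to 8 from the 5′ end) in capitals. mmu-miR-218-5p holds most of the reads, mmu-miR-153-3p, mmu-miR-124-3p and mmu-miR-129-2-3p had none in Ctrl-sEV, mmu-miR-129-5p is cut from the same hairpin as mmu-miR-129-2-3p, and mmu-miR-132-3p and mmu-miR-212-3p share a seed.
mmu-miR-218-5p: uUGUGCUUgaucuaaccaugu
mmu-miR-153-3p: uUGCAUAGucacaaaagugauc
mmu-miR-124-3p: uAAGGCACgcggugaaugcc
mmu-miR-129-2-3p: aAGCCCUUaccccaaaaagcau
mmu-miR-129-5p: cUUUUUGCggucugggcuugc
mmu-miR-132-3p: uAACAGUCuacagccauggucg
mmu-miR-212-3p: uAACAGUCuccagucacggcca
For 9 of the 10 members RefSeq (GRCm38.p6) lists a mature miRNA of the same name and the same sequence. Among the 10, only mmu-miR-132-3p and mmu-miR-212-3p have a seed in common. They are identical over their first 9 bases and at 17 of 22 positions. In the rest of the table a member's seed was found once more, in mmu-miR-7002-3p, which has the seed of mmu-miR-218-5p and had 12 reads, all in Cis-sEV replicate 3. A 5′ U, the base Argonaute favours, stands in 7 of the 10 members (70.0%) and in 345 of the 809 miRNAs with a sequence (42.6%).

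Several members come from more than 1 gene, so their reads cannot be assigned to a locus. mmu-miR-218-5p is encoded by Mir218-1 on chromosome 5 (GRCm38, 48223942 to 48224051) in an intron of Slit2 and by Mir218-2 on chromosome 11 (35616816 to 35616925) in an intron of Slit3, both on the strand of the host, and the Slit genes encode secreted axon guidance proteins. mmu-miR-128-3p comes from Mir128-1 in an intron of R3hdm1 on chromosome 1 and from Mir128-2 in an intron of Arpp21 on chromosome 9. mmu-miR-153-3p comes from Mir153 on chromosome 12 (117250817 to 117250885), in an intron of Ptprn2, which encodes a protein of dense-core vesicles. Mir212 (chromosome 11, 75173388 to 75173478) and Mir132 (75173682 to 75173747) lie 203 bases apart in an intron of the noncoding transcript 1700016P03Rik. Mir129-2 (chromosome 2, 94241364 to 94241453, minus strand) lies in an intron of the noncoding Mir670hg, and Mir137 (chromosome 3), Mir129-1 (chromosome 6) and both Mir138 genes (chromosomes 8 and 9) overlap exons of noncoding or pseudogene transcripts.

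Each Cis-sEV library held between 1722359 and 1794175 miRNA reads and each Ctrl-sEV library between 528952 and 718597, and CPM are reads scaled to a library of 1000000 miRNA reads. A count of 0 allows a level of 3 reads, which is 1.67 to 1.74 CPM for the Cis-sEV and 4.17 to 5.67 CPM for the Ctrl-sEV libraries. Ctrl-sEV libraries also had few miRNAs at middle depth. Between 11 and 20 had 9 to 31 reads, against 159 to 166 in the Cis-sEV libraries, and the coefficient of biological variation was 1.55 in Ctrl-sEV and 0.369 in Cis-sEV. Among the members, mmu-miR-128-3p ranged from 1 to 265 reads in Ctrl-sEV. The part of this scatter in the results below was not tested. Intervals and limits cover counting error only. They leave out the spread between libraries, and copies made by PCR were not told apart.

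As a whole the members were a larger share of the vesicle miRNA in Cis-sEV. All reads of the 10 together came to 1.42, 1.35 and 1.40% of the miRNA reads with cisplatin and to 0.346, 0.336 and 0.503% with PBS. Every Cis-sEV share lay above every Ctrl-sEV share. The exact 95% intervals of the single libraries, from 1.34 to 1.44% and from 0.323 to 0.523%, did not meet. They cover counting error within a library and not the spread between libraries. In CPM the sum was 13922 ± 353 (SD, n = 3) against 3950.4 ± 937 (SD, n = 3), 3.52 times as much. Nearly all of it was mmu-miR-218-5p, with between 91.7 and 93.3% of the members' Cis-sEV reads and between 85.0 and 96.6% of their Ctrl-sEV reads. Without mmu-miR-218-5p the sum was 1177, 1025 and 941 CPM in Cis-sEV and 117, 505 and 170 CPM in Ctrl-sEV, 3.97 times as much by the means. The number of members with a read was 9, 10 and 10 per library with cisplatin and 5, 5 and 4 with PBS. The whole table of 810 miRNAs fell too, with 586, 603 and 601 having a read with cisplatin and 258, 266 and 311 with PBS. Reads in every Cis-sEV library were found for 9 of the 10 members and for 53.1% of the table, and reads in every Ctrl-sEV library for 4 of the 10 (mmu-miR-218-5p, mmu-miR-128-3p, mmu-miR-129-5p and mmu-miR-138-5p) and for 22.2% of the table.

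**Figure D1:**
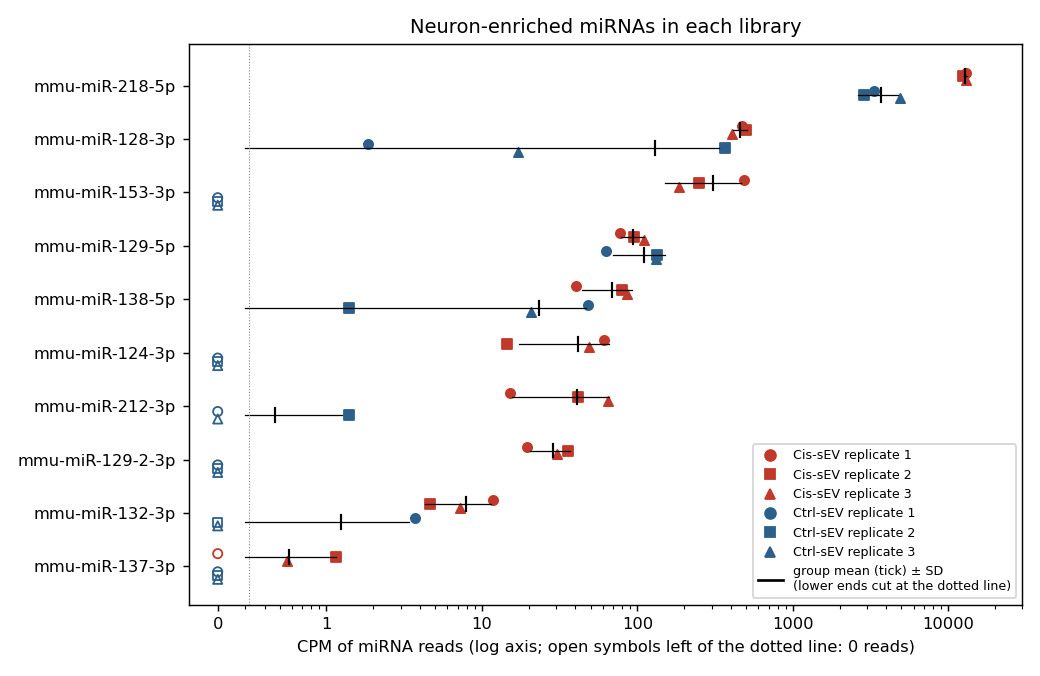
Level of each neuron-enriched miRNA in each library, in CPM of miRNA reads on a log axis, with Cis-sEV in red, Ctrl-sEV in blue, 1 symbol shape per replicate, and the group mean ± SD (n = 3) in black. Open symbols at the left are libraries with 0 reads. mmu-miR-153-3p, mmu-miR-124-3p and mmu-miR-129-2-3p have reads in the 3 Cis-sEV libraries and none in Ctrl-sEV, while mmu-miR-129-5p overlaps between the groups.

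Of the 10 members, 6 had reads in Ctrl-sEV and 4 had none, whereas 400 of the 810 miRNAs in the table (49.4%) had reads there. In Cis-sEV all 10 had at least 1 read, as had 98.6% of the table. The groups were compared with the quasi-likelihood test of edgeR over the 353 miRNAs with enough reads, with calls made at Benjamini-Hochberg adjusted p ≤ 0.05 and a change of 1 or more, up or down, on the log2 scale. The filter passed 8 members and left out mmu-miR-137-3p and mmu-miR-132-3p. Called higher in Cis-sEV were 5 of the 8, where 23.5% of all tested miRNAs were called higher. None was called lower, where 6.52% were (3 of the 8 were not called, and DESeq2 called none lower either). At an unadjusted p under 0.05 were the same 5 members, all higher, and 41.6% of all tested miRNAs. A member without reads in Ctrl-sEV passed the filter through its Cis-sEV reads alone and so had to differ, and mmu-miR-212-3p, with 1 read in Ctrl-sEV, passed it the same way. The count of 5 holds 4 such members and is a description. The median log2 fold change was 3.70 over the 8 members and 0.44 over all miRNAs tested, and 3 of the 8 values rest on 0 reads in Ctrl-sEV. In CPM, every Cis-sEV library lay above every Ctrl-sEV library for 7 of the 10 members, against 26.5% of the 810 miRNAs. The other 3 overlapped, none lay below, and 4.32% of the 810 did. On the TMM-scaled level, 5 of the 8 tested members lay above, against 37.7% of the miRNAs tested, and none below, against 12.5%. These 5, like the 7 above in CPM, include the same 4 members. Both counts are therefore descriptions too.

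**Figure D2:**
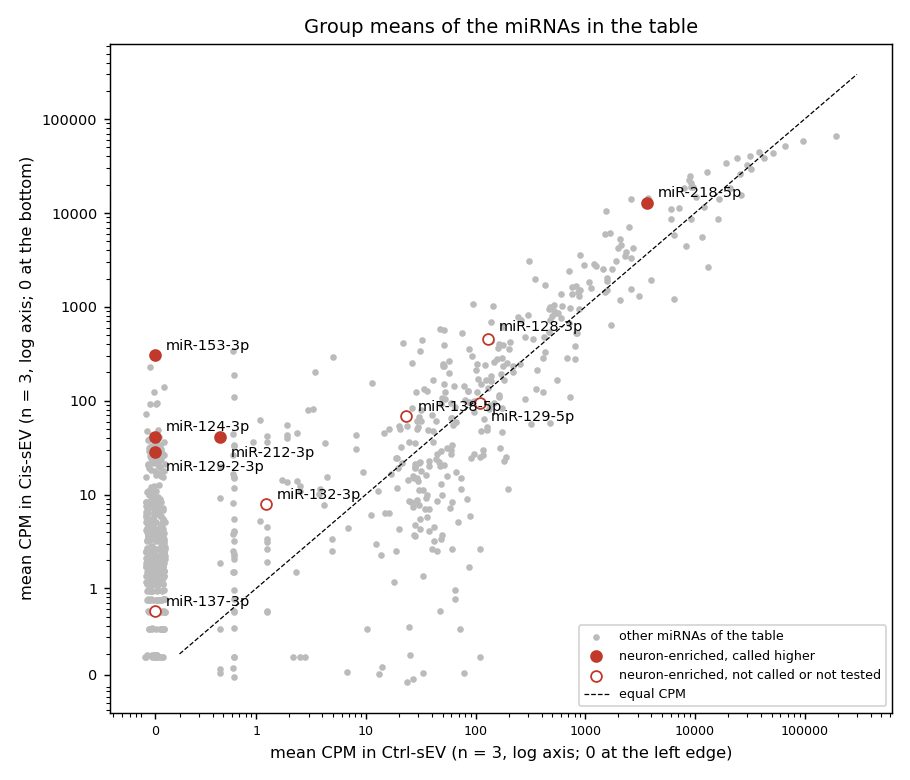
Mean CPM in Ctrl-sEV (horizontal) and Cis-sEV (vertical) of the miRNAs in the table, n = 3 libraries per group, both axes on a log scale with means of 0 at the edge, where grey points are spread sideways to be seen. Red points are the neuron-enriched miRNAs, filled where called higher. mmu-miR-153-3p lies at the top of the column of miRNAs without Ctrl-sEV reads, at 307 CPM in Cis-sEV.

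mmu-miR-153-3p, which targets messages of the synaptic vesicle release machinery, had the highest lower bound. Its reads were 866, 431 and 334 in Cis-sEV and 0, 0 and 0 in Ctrl-sEV. All 3 Cis-sEV libraries were high, replicate 1 the highest, and the groups did not overlap. At the Cis-sEV level, scaled with the factors of the test, the 3 Ctrl-sEV libraries together would have held 438 reads. Against a floor of 3 reads for the Ctrl-sEV libraries together it was at least 146-fold higher in Cis-sEV. The adjusted p in edgeR's test was 0.00771, for a miRNA that passed the filter through its Cis-sEV reads alone and so had to differ. The bound was 81.2 when Ctrl-sEV replicate 2 was left out. Leaving out Cis-sEV replicate 1 ended the call (adjusted p = 0.0761). Of the 182 miRNAs with a mean of at least 100 CPM in Cis-sEV, 5 (2.75%) had no read in Ctrl-sEV: mmu-miR-153-3p, mmu-miR-100-3p, mmu-miR-344-3p, mmu-miR-34c-3p and mmu-miR-669l-5p, the last 4 named here after their values were seen.

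mmu-miR-124-3p is the miRNA most closely tied to neurons, in which it holds down messages of other cell types. It had 109, 25 and 88 reads in Cis-sEV and 0, 0 and 0 in Ctrl-sEV. Replicate 2 was the lowest of the Cis-sEV libraries, 4.19 times below replicate 1 in CPM, and no Ctrl-sEV library had a read. It was at least 19.9-fold higher, with an adjusted p of 0.0136 in edgeR's test, and the bound was 11.05 when Ctrl-sEV replicate 2 was left out. With each of the 6 libraries left out in turn edgeR called it, with an adjusted p from 0.0116 to 0.0360. Since it passed the filter through its Cis-sEV reads alone, it had to differ, and these calls are a description. The study also measured this miRNA by RT-qPCR, an assay separate from the sequencing. It does not name this miRNA among those with stable upregulation in Cis-sEV by that assay. The rise given here therefore rests on the sequencing counts alone.

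mmu-miR-129-2-3p, the 3′ arm of a hairpin expressed in brain, had 35, 62 and 55 reads in Cis-sEV and 0, 0 and 0 in Ctrl-sEV. The 3 Cis-sEV libraries were within 1.84 times of each other. It was at least 13.6-fold higher, with an adjusted p of 0.00562 in edgeR's test, and was called with each library left out in turn. Having passed the filter through its Cis-sEV reads alone, it had to differ in these fits. The bound was 7.56 when Ctrl-sEV replicate 2 was left out, and limma-voom did not call it (adjusted p = 0.0629). The last member without Ctrl-sEV reads, mmu-miR-137-3p, a regulator of neuronal differentiation, had 0, 2 and 1 reads in Cis-sEV. It was at or under the floor in both groups, so no fold is given. Among the 8 members with a mean of at least 10 CPM in Cis-sEV, 3 had no read in Ctrl-sEV, whereas 67 of the 367 miRNAs at that level (18.3%) had none.

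Of the 6 members with reads in Ctrl-sEV, mmu-miR-218-5p was the most abundant and the least scattered. This miRNA is abundant in motor neurons and is made from the Slit introns given above. It had 23396, 21557 and 23407 reads in Cis-sEV and 1803, 2054 and 2571 in Ctrl-sEV. In CPM these were 12874 ± 310.2 (SD, n = 3) and 3686 ± 1045 (SD, n = 3), rank 26 and rank 37 of the table, and the lowest Cis-sEV library lay 2.58 times above the highest Ctrl-sEV library. edgeR gave a log2 fold change of 1.45 ± 0.23 (standard error) with an adjusted p of 0.00538, and between 1.29 and 1.78 with each library left out in turn, where it was called each time. DESeq2 gave a log2 fold change of 1.38 and did not call it (adjusted p = 0.0708).

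mmu-miR-212-3p, made with mmu-miR-132-3p from a cluster that neuronal activity induces, had 27, 72 and 117 reads in Cis-sEV and 0, 1 and 0 in Ctrl-sEV. The ratio of the summed reads, scaled as in the test, was 58.0 with a 95% Clopper-Pearson interval of 10.3 to 2303, and the groups did not overlap. The adjusted p in edgeR's test was 0.0152, for a miRNA that passed the filter through its Cis-sEV reads alone. The call was lost when Cis-sEV replicate 1 was left out (adjusted p = 0.0503), with limma-voom (adjusted p = 0.0776) or without the filter on low counts (adjusted p = 0.0634), and without Ctrl-sEV replicate 2 it has no Ctrl-sEV read, and the ratio then has no upper end.

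mmu-miR-132-3p, its partner with the same seed, had 21, 8 and 13 reads in Cis-sEV and 2, 0 and 0 in Ctrl-sEV. The counts were too low to pass the filter of the test. Fits of all libraries that kept it did not call it. Adjusted p was 0.360 from edgeR at 10 reads over all libraries, 0.455 from edgeR without the filter and 0.381 from DESeq2. The ratio of the summed reads was 5.64, with a 95% Clopper-Pearson interval of 1.47 to 48.1 that covers counting error only. Once the TMM factors were applied the groups overlapped.

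mmu-miR-128-3p, which restrains the excitability of neurons, rested on 1 Ctrl-sEV library. It had 839, 863 and 730 reads in Cis-sEV and 1, 265 and 9 in Ctrl-sEV. The Cis-sEV libraries lay within 1.23 times of each other, whereas Ctrl-sEV replicate 2 lay 199 times above replicate 1 in CPM. The lowest Cis-sEV library was 1.10 times the highest Ctrl-sEV library in CPM, and after TMM scaling the groups overlapped. edgeR put the log2 fold change at 1.64 ± 1.45 (standard error), which did not pass the test (adjusted p = 0.510). Without Ctrl-sEV replicate 2 it was 5.25 and was called (adjusted p = 0.0305).

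mmu-miR-138-5p, which limits the size of dendritic spines, had 72, 137 and 153 reads in Cis-sEV and 26, 1 and 11 in Ctrl-sEV. In CPM that was 68.3 ± 24.5 (SD, n = 3) against 23.5 ± 23.5 (SD, n = 3). Ctrl-sEV replicate 1 lay above Cis-sEV replicate 1, so the groups overlapped. With a log2 fold change of 1.06 ± 1.44 (standard error), it did not pass edgeR's test (adjusted p = 0.699).

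mmu-miR-129-5p was the one tested member with a negative log2 fold change. It had 139, 165 and 197 reads in Cis-sEV and 34, 96 and 70 in Ctrl-sEV. In CPM these were 94.4 ± 16.1 (SD, n = 3) and 109.6 ± 40.4 (SD, n = 3), and the 3 Cis-sEV libraries lay inside the range of the Ctrl-sEV libraries. Its log2 fold change in edgeR, -0.53 ± 0.88 (standard error), did not pass the test (adjusted p = 0.745) and ran from -0.81 to -0.31 with each library left out. The interval of 1 standard error around it holds both a fall and a rise, so this does not show that the level was equal.

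**Figure D3:**
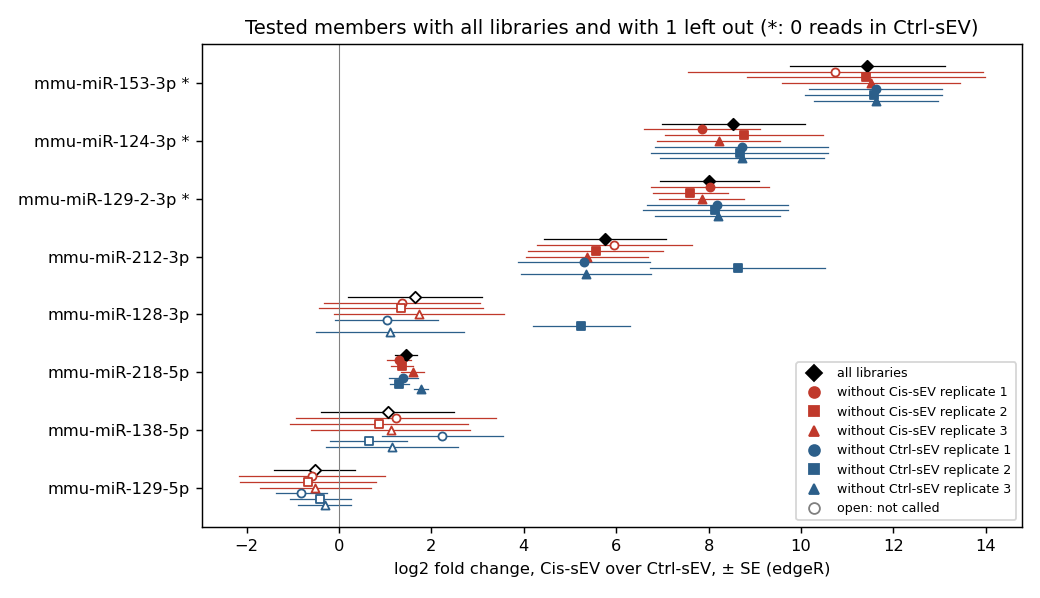
log2 fold change (Cis-sEV over Ctrl-sEV) ± standard error from edgeR for the 8 tested members, with all libraries (black) and with each library left out (red: a Cis-sEV library, blue: a Ctrl-sEV library). Open symbols were not called, and for the members marked * the size rests on the prior count, since they have 0 reads in Ctrl-sEV. mmu-miR-218-5p stays between 1.29 and 1.78, and mmu-miR-128-3p moves from 1.64 to 5.25 without Ctrl-sEV replicate 2.

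Of the 2 arms of the Mir129-2 hairpin, one was found in both groups and one in Cis-sEV alone. In the hairpin, printed 5′ to 3′, the capitals mark mmu-miR-129-5p and, after the loop, mmu-miR-129-2-3p.
Mir129-2: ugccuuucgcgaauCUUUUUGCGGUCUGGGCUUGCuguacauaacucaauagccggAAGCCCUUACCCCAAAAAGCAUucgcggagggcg
In Cis-sEV the 3′ arm made up 20.1, 27.3 and 21.8% of the reads of both arms in the 3 libraries, 152 of 653 reads in all (23.3%, exact 95% interval 20.1 to 26.7%). In Ctrl-sEV it made up 0 of 200 reads, which allows a share of up to 1.83% by the same kind of interval. That limit covers counting error only and leaves out the wide spread between Ctrl-sEV libraries (coefficient of biological variation 1.55), so the share could be higher. At the Cis-sEV ratio of 0.303 reads of the 3′ arm for each of the 5′ arm, those 200 reads would have gone with 60.7 reads of mmu-miR-129-2-3p. mmu-miR-129-5p can also come from Mir129-1, whose 3′ arm is another miRNA, and the share of its reads from each gene is not known.

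The hairpins of the activity-induced cluster gave a further contrast between arms. In these hairpins the capitals mark the 5p and then the 3p product.
Mir212: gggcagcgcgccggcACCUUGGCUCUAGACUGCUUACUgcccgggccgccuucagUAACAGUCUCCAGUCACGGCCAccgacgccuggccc
Mir132: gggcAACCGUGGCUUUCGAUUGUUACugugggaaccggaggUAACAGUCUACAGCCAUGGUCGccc
mmu-miR-132-5p outnumbered mmu-miR-132-3p, the arm usually counted as the guide, in each Cis-sEV library, with 124, 78 and 120 reads against 21, 8 and 13. The 3p arm was 14.5, 9.30 and 9.77% of the reads of both. In Ctrl-sEV, mmu-miR-132-5p had 0, 68 and 0 reads and did not pass the test (log2 fold change 0.74, standard error 2.04, adjusted p = 0.859 from edgeR). All of its Ctrl-sEV reads lay in replicate 2, and without that library it was called higher (adjusted p = 0.0305).

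For Mir212 the 2 arms took opposite orders over the Cis-sEV libraries. mmu-miR-212-5p had 130, 30 and 19 reads where mmu-miR-212-3p had 27, 72 and 117, so that the 3p share was 17.2% in replicate 1, 70.6% in replicate 2 and 86.0% in replicate 3. The exact 95% intervals of replicate 1 (11.6 to 24.0%) and of the other two (60.7 to 79.2% and 79.0 to 91.4%) were far apart. With no read in Ctrl-sEV, mmu-miR-212-5p was at least 16.03-fold higher in Cis-sEV, with an adjusted p of 0.0189 in edgeR's test. It passed the filter through its Cis-sEV reads alone and so had to differ. The bound was 6.57 when Cis-sEV replicate 1, the library with most of its reads, was left out, and 8.91 when Ctrl-sEV replicate 2 was. The call was lost without Ctrl-sEV replicate 1 (adjusted p = 0.0522) and without Ctrl-sEV replicate 2 (adjusted p = 0.0575), and without Cis-sEV replicate 1 or 2 it did not pass the filter. With all 6 libraries it was also not called with limma-voom (adjusted p = 0.0776), without the filter (adjusted p = 0.0521) or with the filter at 10 reads over all libraries (adjusted p = 0.0530).

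**Figure D4:**
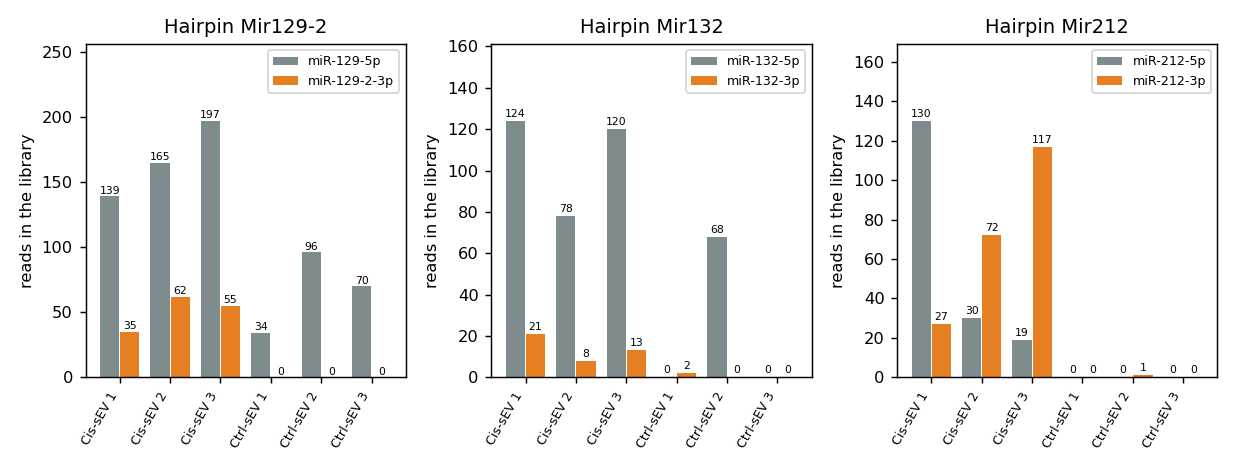
Reads of both arms of the hairpins Mir129-2, Mir132 and Mir212 in each library (grey: 5p arm, orange: 3p arm, read counts above the bars). mmu-miR-129-5p has 34 to 96 reads in the Ctrl-sEV libraries where mmu-miR-129-2-3p has 0, and the larger arm of Mir212 is the 5p arm in Cis-sEV replicate 1 and the 3p arm in the other two.

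The remaining products of these hairpins were rare. Of 14 names sought, 6 had a row, and besides mmu-miR-132-5p and mmu-miR-212-5p these were mmu-miR-128-1-5p with 5 reads, mmu-miR-153-5p with 7, mmu-miR-138-2-3p with 12 and mmu-miR-129b-5p, which is read from the strand opposite Mir129-2, with 9. Each was found in 1 Cis-sEV library only and in no Ctrl-sEV library. The 3p arm of Mir153 thus held 99.6% of the Cis-sEV reads of its hairpin.

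The members also differed in how far the Cis-sEV libraries varied. The coefficient of variation of CPM was 2.41% for mmu-miR-218-5p, 10.4% for mmu-miR-128-3p and 17.1% for mmu-miR-129-5p. It was 51.0% for mmu-miR-153-3p, 58.1% for mmu-miR-124-3p and 61.6% for mmu-miR-212-3p. The libraries at the top were not the same, since mmu-miR-153-3p and mmu-miR-124-3p were highest in replicate 1 and mmu-miR-212-3p, mmu-miR-138-5p and mmu-miR-129-5p in replicate 3.

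A second list held other miRNAs linked to neurons. Of 24 named, 23 had a row, 20 had reads in Ctrl-sEV and 20 were tested. Their sum was 38316 to 43034 CPM in Cis-sEV and 13277.5 to 20527.5 CPM in Ctrl-sEV, 2.35 times as much by the means. The highest Cis-sEV means were those of mmu-miR-125b-5p (18619 CPM) and mmu-miR-181c-5p (14398 CPM). In CPM, 8 of the 23 lay above in every Cis-sEV library and 2 below, against 26.5% and 4.32% of the table. Called were 2 of the 20 higher and 2 lower, against 23.5% and 6.52% of all miRNAs tested, and the median log2 fold change of the 20 was 0.13, against 0.44 over all miRNAs tested. The higher ones were mmu-miR-181c-5p, with 27260, 23364 and 25858 reads against 1925, 2013 and 2590 (log2 fold change 1.58, standard error 0.25, adjusted p = 0.00530 from edgeR), and mmu-miR-330-3p, with 37, 77 and 86 against 0, 0 and 0, at least 17.9-fold higher (9.95-fold when Ctrl-sEV replicate 2 was left out). mmu-miR-330-3p passed the filter through its Cis-sEV reads alone and so had to differ. The lower ones were mmu-miR-7b-5p, with 25, 14 and 22 reads against 51, 80 and 206 (log2 fold change -4.43, standard error 1.10, adjusted p = 0.0194 from edgeR), and mmu-miR-485-5p, with 213, 240 and 205 against 130, 245 and 340 (log2 fold change -2.04, standard error 0.56, adjusted p = 0.0284 from edgeR). Both lower calls were lost when any 1 Cis-sEV library was left out, with adjusted p from 0.0923 to 0.110 for mmu-miR-7b-5p and from 0.0939 to 0.134 for mmu-miR-485-5p in edgeR. With all libraries, limma-voom called neither (adjusted p = 0.0629 and 0.0647), and mmu-miR-485-5p was not called with total miRNA reads (adjusted p = 0.0662), without the filter (adjusted p = 0.0931) or at 10 reads over all libraries (adjusted p = 0.0976). DESeq2 did not call mmu-miR-181c-5p (adjusted p = 0.0523). mmu-miR-9-5p, a miRNA of neural progenitors and neurons, had 2819, 2863 and 2770 reads against 506, 777 and 728, and did not pass the test (log2 fold change 0.15, standard error 0.22, adjusted p = 0.705 from edgeR).

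Markers of other cells moved between the groups as well, and their part in the results above was not tested. Of the muscle markers, 2 of 3 had a row and both were called higher, with a sum of 47.4 to 62.4 CPM in Cis-sEV and 0 to 2.78 CPM in Ctrl-sEV, where mmu-miR-206-3p was at 0 and so passed the filter through Cis-sEV alone. The call of the other, mmu-miR-1a-3p, was lost without any 1 Cis-sEV library (adjusted p from 0.0677 to 0.0761 in edgeR). With 0, 2 and 0 reads in Ctrl-sEV, mmu-miR-1a-3p also passed the filter through Cis-sEV alone. Of the 6 epithelial markers 2 were called higher, with a sum of 46641 to 49734 CPM against 23458 to 31980 CPM. These were mmu-miR-200a-3p and mmu-miR-200b-3p, each called in 2 of the 6 fits with a library left out (adjusted p up to 0.0769 and 0.0678 in edgeR), both when Ctrl-sEV replicate 3 was left out, the first also when Cis-sEV replicate 1 was and the second also when Cis-sEV replicate 2 was. Of the 3 hair cell markers 1, mmu-miR-96-5p, was called higher, and the sum was 59073 to 81525 CPM against 54984 to 55757 CPM. With TMM factors these sums overlapped, at 50048 to 73377 against 55946 to 73189. mmu-miR-183-5p, the most abundant of the 3, lay below in every Cis-sEV library, with a log2 fold change of -0.49 (adjusted p = 0.0419 from edgeR) that was under the fold limit, and the call of mmu-miR-96-5p was lost without Ctrl-sEV replicate 1 or 2 (adjusted p = 0.0554 and 0.0555). None of the 5 mesenchymal markers was called, with 6062 to 9821 CPM against 3018 to 5307 CPM. None of the 4 glial markers was called (2 tested), with 104 to 133 CPM against 40.4 to 196 CPM, where mmu-miR-219a-5p and mmu-miR-219b-5p were at 0 in Ctrl-sEV. Leukocyte markers (3 of 5 with a row) stood at 429.8 to 674 CPM against 399 to 561 CPM, with none called. In the other direction, 2 of the 3 erythrocyte markers were called lower, with 1153 to 1306 CPM against 1509 to 3330.1 CPM and mmu-miR-144-3p at 0 in Ctrl-sEV. Of these, mmu-miR-451a, with most of the reads, was called in 1 of the 6 fits with a library left out, the one without Ctrl-sEV replicate 3 (adjusted p up to 0.143 in edgeR), and mmu-miR-486a-5p in all 6. The 2 endothelial markers went opposite ways. mmu-miR-126a-3p was called lower and made up nearly all of a sum of 6915 to 9947 CPM against 14595 to 18602 CPM. Scaled by total miRNA reads, its log2 fold change was -0.93, short of the fold limit, and it was not called. mmu-miR-126a-5p had 94, 51 and 84 reads against 0, 0 and 3, with a log2 fold change of 4.17 that did not pass the test (adjusted p = 0.0759 from edgeR) except without Ctrl-sEV replicate 3 (adjusted p = 0.0197).

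The miRNAs outside these lists whose pattern was most like the members' were found by Pearson correlation over the 6 libraries between log2(CPM + 1) and the mean of the 9 members with at least 10 reads. They were mmu-miR-669l-5p (r = 0.9989), mmu-miR-3084-5p (r = 0.9986) and mmu-miR-8103 (r = 0.9984). All 3 had reads in each Cis-sEV library and none in Ctrl-sEV. The 6 points form 2 groups that share treatment and depth, and 96 of the 771 miRNAs compared had r above 0.95.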

How the data were processed

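The authors isolated sEV from the medium of cochlear explants by filtration and ultracentrifugation, size-selected small RNA on a gel and sequenced it (DNBSEQ). Bowtie2 alignment to GRCm38.p6 and annotation with AASRA and cmsearch followed, with versions not given in the sources used here. They deposited read counts for each mature miRNA and library, whole numbers without normalization. Columns of group averages were not used.

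edgeR's quasi-likelihood test was run on the deposited counts of the 6 libraries with TMM factors and Benjamini-Hochberg adjustment, on the miRNAs that edgeR's filterByExpr kept at default settings. The test takes the same spread for both groups, although the coefficient of biological variation was 1.55 in Ctrl-sEV and 0.369 in Cis-sEV. The standard error is the log2 fold change divided by the root of the F statistic. CPM are relative to the miRNA reads of a library, without TMM factors. Bounds and ratios of summed reads use TMM-scaled library sizes, and a group at 0 stands at a floor of 3 reads over the group. The edgeR fit (with and without a replicate block), DESeq2 and limma-voom were tested on simulated counts. These had the same spread in both groups, unlike the data. The bounds, ratios and intervals were not tested in this way. Alternatives were other scalings, filters and tests (DESeq2, limma-voom), a replicate block, and libraries left out. limma-voom with group weights was chosen after seeing the data. Versions were R 4.3.3, edgeR 4.0.16, limma 3.58.1, DESeq2 1.42.0, Python 3.11.15, pandas 2.3.3, scipy 1.17.1 and matplotlib 3.10.9.

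The members and lists were chosen with earlier results of these data known. Named were the members, other products of their hairpins, miRNAs with a member's seed, a list of other neuron-linked miRNAs, markers of other cells, and the 3 miRNAs most like the members. Libraries of a group differed by more than sampling noise (chi-square per degree of freedom 66.3 to 115).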

Additional observations from a re-analysis of the deposited data

How the results depend on the processing

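The 5 members called higher became 3 with limma-voom and ranged from 3 to 6 with 1 library left out (3 without Cis-sEV replicate 1). With the group weights added afterwards they were 5. No member was called lower in any fit run, and no log2 fold change of a tested member changed sign. Of the 6 with reads in Ctrl-sEV, 4 had at least 5 reads in a library. The ratio of summed CPM was 3.52, 2.76 with TMM factors, and 3.28 to 4.08 with 1 library left out. Over all miRNAs, 83 were called higher and 23 lower. These were 30 and 13 with limma-voom and 97 and 11 with total miRNA reads, where 89.8% of the calls were higher instead of 78.3% and the median log2 fold change was 0.80 instead of 0.44. Lower calls were 14 with no filter and 13 with at least 10 reads over all libraries. With 1 library left out there were 40 to 144 higher and 11 to 30 lower. The replicate numbers are shared between the groups. Deviations of same-numbered libraries correlated at -0.06, -0.19 and -0.02, and each Cis-sEV library correlated best with another number. With so few libraries, values this weak cannot decide whether the numbers pair the libraries. With the replicate block, 13 higher and 11 lower calls were made, and of the members 1, mmu-miR-218-5p. The cause of these shifts was not tested. The 3 reads that set the floor limit each fold against a group at 0.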
